A study of Mus musculus with 10 samples.

Results

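The 8 interleukin-1 and inflammasome genes followed here in microglia are Il1a, Il1b, Il1rn, Il18, Nlrp3, Casp1, Casp4 and Pycard. They were taken by gene symbol from the count tables, and make up 8 of the 18292 gene symbols in the 10 tables, with every member present in every table. The samples were 10 single cell libraries from C57BL/6 mice, 2 for each of 5 groups: microglia isolated directly from adult brain ("adult"), microglia from mixed glial cultures of neonatal cortex kept for 3 weeks ("in vitro"), and microglia from organotypic brain slices of newborn pups after 1 day, 1 week or 3 weeks in culture ("slice 1 day", "slice 1 week" and "slice 3 weeks"). All of them were sorted as live cells with high CD11b and intermediate CD45, and none of the groups was given an inflammatory stimulus. Per the paper, human PDGF, a growth factor, was added to the slice medium at each medium change. It is not listed for the mixed glial medium. The adult group differs from the 4 cultured groups in the age of the donor animals as well as in culture, several slices could be pooled for a sample, and nothing in the labels ties a library to an animal, so p-values measure the spread between libraries only.

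Interleukin-1 alpha (Il1a) and interleukin-1 beta (Il1b) are cytokines that signal through the same receptor, and the product of Il1rn, the interleukin-1 receptor antagonist, binds that receptor without activating it. Interleukin-1 beta and interleukin-18 (Il18) are made as inactive precursors. In an inflammasome, a sensor such as NLRP3 recruits the adaptor ASC (Pycard), which activates caspase-1 (Casp1), and caspase-1 cuts both precursors. Caspase-4 (Casp4; the mouse protein is also called caspase-11) responds to cytosolic lipopolysaccharide and, like caspase-1, opens the membrane pore protein gasdermin D. Microglia are a main source of interleukin-1 in brain tissue, and transcription of Il1b is strongly inducible. The values here are RNA counts, which hold no measure of cleavage or secretion.

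Il1a and Il1b lie near each other on chromosome 2 of the mouse genome (GRCm38, the assembly behind mm10). Il1a spans chr2:129299609-129310186 and Il1b chr2:129364569-129371164, both on the minus strand, and Il1rn lies elsewhere on that chromosome, at chr2:24336860-24351491 on the plus strand. The caspase genes are neighbours on chromosome 9, with Casp1 at chr9:5298517-5307281 and Casp4 at chr9:5308849-5336791. Il18 is at chr9:50554700-50581841, Nlrp3 at chr11:59541569-59566955 and Pycard at chr7:127991373-127993867. Il1b overlaps an annotated antisense gene, Il1bos, and Il1a, Il18 and Pycard also overlap genes annotated on the other strand, and how the counting treated such overlaps is not given in the sources used here, so part of their counts is uncertain.

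The stretches just upstream of Il1b and Il1rn are shown because these members had the most alike levels across the libraries among the cytokine genes. They come from RefSeq promoter windows on GRCm38, cut so that no annotated transcript is included. The stretch of Il1b is chr2:129371165-129371389 on the minus strand, and its capitals mark a TATAAA box. The stretch of Il1rn is chr2:24336610-24336852 on the plus strand, and its capitals mark a match to TGANTCA, the AP-1 consensus.
Il1b: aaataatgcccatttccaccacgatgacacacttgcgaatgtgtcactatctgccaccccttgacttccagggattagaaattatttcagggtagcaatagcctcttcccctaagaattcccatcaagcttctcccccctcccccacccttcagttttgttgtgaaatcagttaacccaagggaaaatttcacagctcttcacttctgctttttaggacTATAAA
Il1rn: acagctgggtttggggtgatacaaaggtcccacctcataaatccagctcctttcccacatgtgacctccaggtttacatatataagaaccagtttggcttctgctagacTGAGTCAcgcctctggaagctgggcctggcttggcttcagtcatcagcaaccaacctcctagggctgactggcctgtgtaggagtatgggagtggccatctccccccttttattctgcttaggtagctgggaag
The TATAAA of Il1b ends right at the outermost RefSeq start given above and lies 31 to 26 bases upstream of the GENCODE start, and 10.6% of the 32851 promoter windows hold TATAAA on either strand in their first 225 bases. The AP-1 match of Il1rn lies 134 to 128 bases upstream of the GENCODE start, and 6.64% of windows hold TGANTCA in 243 bases. Neither stretch holds a match to the NF-kB consensus, which 7.03% of windows hold in 225 bases and 7.64% in 243. The windows of Nlrp3 and Casp4 each hold 2 NF-kB matches, those of Nlrp3 overlapping each other, where 7.91% of 250-base windows hold any. These are matches of letters within short windows, not measurements of binding.

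After removal of damaged or overloaded cells, 19059 of 19637 barcodes were kept. The libraries held from 385373 to 39689540 unique molecular identifiers (UMIs, counts of single captured molecules), with medians of 1858 to 13966 UMIs per cell, and any pair of libraries shared 0 to 21 cell barcodes. Several libraries held more barcodes than the cell input given in the labels. All 9 microglia markers checked, P2ry12 and Tmem119 among them, had UMIs in every library, but their summed level was 30400 and 30100 CPM (UMIs of a gene set against a common library total) in the adult libraries, 12200 and 9920 at slice 3 weeks, 7050 and 8180 at 1 week, 4060 and 3530 at 1 day, and 4570 and 3930 in vitro. The slice 1 week group was small, with 148 and 61 cells kept. The slice 1 day libraries and slice 1 week replicate 1 also held neutrophil RNA: the summed level of 14 neutrophil markers was 8160 and 23900 CPM at 1 day and 42600 and 968 CPM at 1 week, against 1.47 to 8.96 CPM in the other 6 libraries. Cells with more than 5% of their UMIs in those markers, called neutrophil-rich here, numbered 57 and 105 at 1 day and 23 and 1 at 1 week, with 27 and 17 cells at 1 day near that cut. The comparisons with adult, those within the time course and the slice 1 day cell shares were also computed without them. In vitro, markers of border macrophages summed to 2290 and 2210 CPM against 6.91 to 304 CPM elsewhere. Cells with at least 3 of these markers were 25.6% and 38.1% of the in vitro cells. They held 12.7% and 33.1% of the Il1b UMIs there, 19.2% and 51.5% of the Il1rn UMIs and 40.5% and 53.6% of the Il1a UMIs. The part of these cells in the in vitro differences was not tested.

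Levels are UMIs summed over the kept cells of a library, scaled by TMM (edgeR's trimmed mean normalisation) and given as CPM, as mean ± SD of n = 2 libraries. A difference was called where edgeR's quasi-likelihood test over all 12157 genes tested gave a false discovery rate (adjusted p) under 0.05 with a fold change above 1.5. The 4 comparisons with adult share the same adult libraries. Called differences were common in this data set. Against adult, 50.8% of all genes tested were called in vitro, 50.2% at slice 1 day, 28.6% at 1 week and 35.4% at 3 weeks. Among the members, 6 of 8 were called in vitro (2 higher, 4 lower), 4 after 1 day (2 higher, 2 lower), 4 after 1 week (2 higher, 2 lower) and 4 after 3 weeks (1 higher, 3 lower). By direction, the shares of all genes were 22.4% higher with 28.5% lower in vitro. In slices they were 24.9% higher with 25.3% lower after 1 day, 15% higher with 13.6% lower after 1 week, and 17.9% higher with 17.5% lower after 3 weeks. The median log2 fold change of the members was -0.63 in vitro, 0.02 at 1 day, -0.56 at 1 week and -0.20 at 3 weeks, where the median of all genes was -0.11, -0.06, -0.08 and -0.03. Because cells of the cultures held more UMIs than adult cells, scaling mattered for direction: with UMIs per cell in place of CPM, the median of all genes moved by 2.15 on the log2 scale in vitro, 1.55 at 1 day, 1.19 at 1 week and 1.08 at 3 weeks, and the share of higher genes among those called went from 44.0% to 94.5%, 49.5% to 95.1%, 52.5% to 97.0% and 50.6% to 95.3%. With library size alone these shares were 29.9%, 43.1%, 37.7% and 35.8%. All differences below are therefore relative to the library's other RNA.

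**Figure D1:**
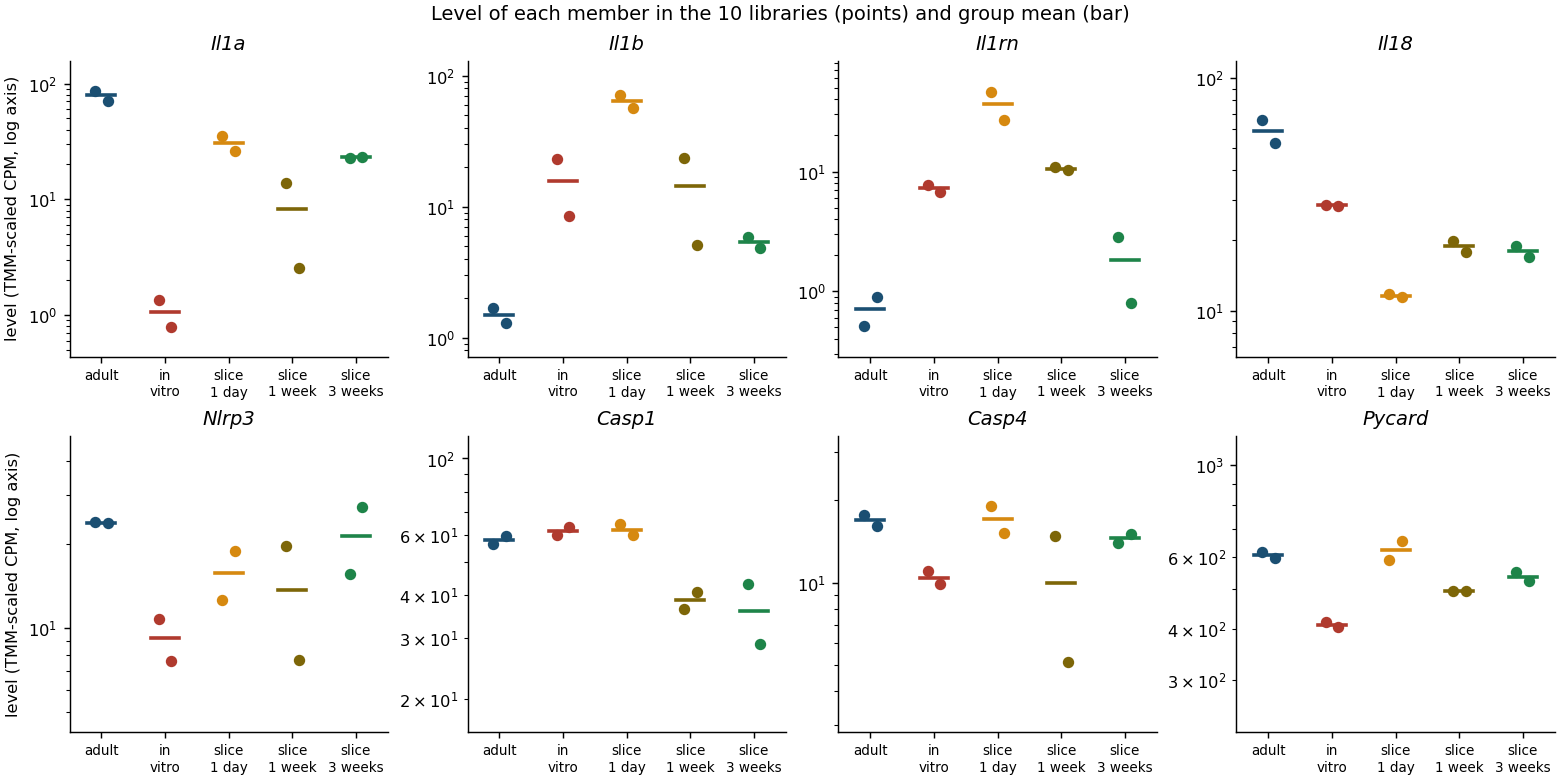
Level of each of the 8 members in TMM-scaled CPM (log axis, different for each gene) in the 10 libraries, with points for libraries and short bars for the mean of 2 libraries a group. Il1a stands highest in adult and lowest in vitro, Il1b and Il1rn are lowest in adult and highest at slice 1 day, and Pycard stays between 405 and 654 CPM.

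Il1a was the agonist transcript of adult microglia, and it was nearly missing in vitro. Its level was 86.9 and 71.1 CPM in the adult libraries, 1.35 and 0.786 CPM in vitro, 35.4 and 26.1 CPM at slice 1 day, 13.8 and 2.56 CPM at 1 week and 22.9 and 23.2 CPM at 3 weeks. Every cultured library lay below both adult libraries. In vitro, Il1a fell by 6.21 ± 0.32 (SE) on the log2 scale, which is 74.2-fold lower (adjusted p = 2.12e-07). The reduction in slices was smaller: 2.61-fold at 1 day (log2 fold change -1.38 ± 0.26, adjusted p = 0.00115; with UMIs per cell the sign turned, to 0.12), 7.60-fold at 1 week (-2.93 ± 0.41, adjusted p = 0.000512) and 3.43-fold at 3 weeks (-1.78 ± 0.25, adjusted p = 0.0004; with UMIs per cell -0.71, adjusted p = 0.0893, and no longer called). The 1 week value rests on 14 UMIs and 1 UMI, 8 of the 14 in a single cell, and was -4.92 on the log2 scale without replicate 1. In the order of group means, adult stood above slice 1 day and slice 1 week above in vitro (adjusted p = 0.00449), while slice 1 day, 3 weeks and 1 week could not be separated from their neighbours (adjusted p = 0.276 and 0.171). Compared directly, in vitro Il1a was 21.6-fold below slice 3 weeks (log2 fold change -4.44 ± 0.31, adjusted p = 4.35e-06), and this call held under all 26 alternatives run.

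Il1b showed another pattern, with its highest level at slice 1 day and almost none in adult. The adult libraries held 1.68 and 1.29 CPM (23 and 10 UMIs), against 71.8 and 56.3 CPM at slice 1 day, 23.7 and 5.12 CPM at 1 week, 5.82 and 4.84 CPM at 3 weeks and 23.2 and 8.48 CPM in vitro. No cultured library was as low as an adult library. Il1b rose 41.5-fold at slice 1 day (log2 fold change 5.38 ± 0.54, adjusted p = 2.56e-05) and 10.3-fold in vitro (3.36 ± 0.53, adjusted p = 0.000376), and both calls held under all 26 alternatives. The in vitro log2 value was 2.59 without in vitro replicate 1 and 4.04 without replicate 2. At 3 weeks it was 12.1-fold below 1 day (log2 fold change -3.60 ± 0.46, adjusted p = 0.000559), a call that also held under all 26. It was still 3.42-fold above adult at 3 weeks (1.77 ± 0.58, adjusted p = 0.033). This call was lost when any library of either group was left out, and also with library size alone. Over the alternatives its log2 value ranged from 1.58 to 2.86. The rise at 1 week (11.5-fold, 3.53 ± 0.79, adjusted p = 0.00736) rested on replicate 1, with its 24 UMIs, and without that library the log2 fold change was 1.77 with an adjusted p of 0.653. Slice 1 day stood above in vitro in the order of means (adjusted p = 0.00379), and in vitro, 1 week and 3 weeks did not separate from one another as neighbours (adjusted p = 0.901 and 0.173).

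Because each UMI stands for 1 molecule caught at its 3' end, counts of Il1a and Il1b in a library can be set side by side without correction for length, although capture may differ between the genes. Il1b made up 1.90% of the summed Il1a and Il1b UMIs in adult replicate 1 (exact 95% binomial interval 1.21 to 2.84, counting error only) and 1.78% in replicate 2 (0.856 to 3.25). In vitro the share was 94.5% (92.6 to 96.0) and 91.5% (88.0 to 94.3). The agonist RNA of adult microglia was thus nearly all Il1a and that of in vitro microglia nearly all Il1b. Slice 1 day lay between, with 67.0% and 68.3%, and slice 3 weeks had come down to 20.3% (15.2 to 26.2) and 17.3% (14.3 to 20.5), above both adult libraries and below all others. Slice 1 week gave 63.2% and 66.7%, the latter from 3 UMIs. Without neutrophil-rich cells the slice 1 day shares were 60.1% and 63.2% and that of 1 week replicate 1 was 50%.

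**Figure D2:**
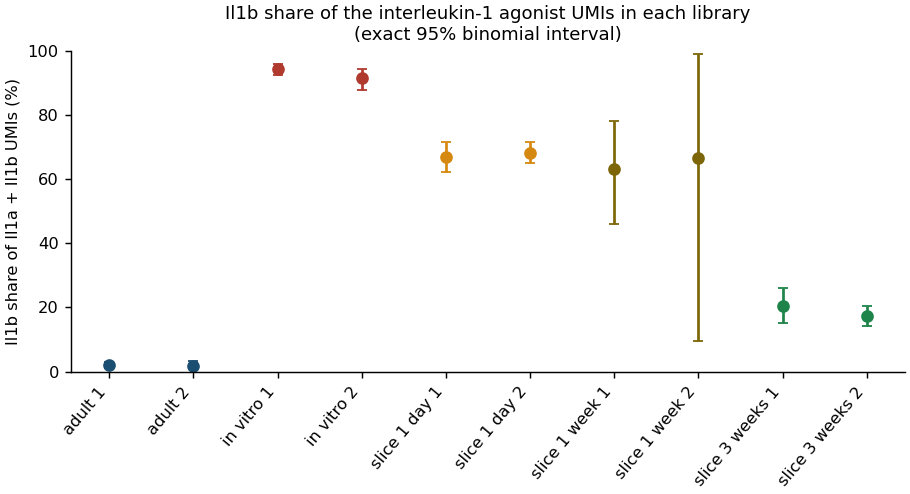
Il1b UMIs as a percentage of the Il1a plus Il1b UMIs of each library, with exact 95% binomial intervals that cover counting error only. The 2 libraries of a group lie close together, from 1.78% and 1.90% in adult to 91.5% and 94.5% in vitro, with slice 3 weeks at 17.3% and 20.3%.

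Il1rn, the receptor antagonist, moved with Il1b. Its level was 0.513 and 0.902 CPM in adult (7 UMIs in each library, all 7 of replicate 2 in a single cell), 46.4 and 27.1 CPM at slice 1 day, 10.9 and 10.2 CPM at 1 week, 2.85 and 0.792 CPM at 3 weeks, and 7.71 and 6.76 CPM in vitro. At 3 weeks the libraries overlapped with adult, and the difference was not called (log2 fold change 1.18 ± 0.68, adjusted p = 0.193). Il1rn rose 53.8-fold at slice 1 day (5.75 ± 0.54, adjusted p = 1.64e-05) and 10.8-fold in vitro (3.43 ± 0.55, adjusted p = 0.000404), and at 3 weeks it was 23.8-fold below 1 day (-4.57 ± 0.48, adjusted p = 0.000192), a log2 value that ranged from -3.64 without slice 3 weeks replicate 2 to -5.49 without replicate 1 and -6.08 after thinning. The 15.9-fold rise at 1 week (3.99 ± 0.85, adjusted p = 0.00585) rested on 11 and 4 UMIs, and its adjusted p was 0.161 without replicate 1 and 0.0502 after thinning to 1500 UMIs per cell. Over the 10 libraries, log2 levels of Il1b and Il1rn had a Pearson r of 0.90, a description over libraries that fall in 5 groups. Il1b outnumbered Il1rn in UMIs in every library except slice 1 week replicate 2, which held 2 and 4: there were 1.55 and 2.08 Il1b UMIs per Il1rn UMI at slice 1 day, and 3.01 and 1.25 in vitro.

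Il18 was lower in every culture than in adult, and lowest at slice 1 day. It was measured at 65.6 and 52.3 CPM in adult, 28.5 and 28.1 CPM in vitro, 11.8 and 11.4 CPM at slice 1 day, 19.8 and 17.9 CPM at 1 week and 19.0 and 17.0 CPM at 3 weeks. The libraries of a group agreed closely and none overlapped with adult. Il18 fell 5.10-fold at slice 1 day (log2 fold change -2.35 ± 0.17, adjusted p = 3.02e-06), 3.08-fold at 1 week (-1.62 ± 0.22, adjusted p = 0.000438) and 3.29-fold at 3 weeks (-1.72 ± 0.15, adjusted p = 2.49e-05). In vitro it fell 2.09-fold (-1.06 ± 0.15, adjusted p = 0.000149), which turned to 1.08 on the log2 scale with UMIs per cell. Only the slice 1 day call held under all 26 alternatives; the other 3 were lost with UMIs per cell and under no other setting. From 1 day to 3 weeks the level rose 1.55-fold (0.63 ± 0.17, adjusted p = 0.0182), a difference near the fold threshold that 9 of the alternatives did not call, among them the fit without neutrophil-rich cells. Of the precursor cytokines, Il1b was highest at slice 1 day and lowest in adult and Il18 the reverse, while in vitro, 1 week and 3 weeks stood in the same order for both (Pearson r of -0.78 over the 10 libraries, as a description).

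Among the sensor, adaptor and caspase genes, Nlrp3 was at 24.0 and 23.8 CPM in adult, 10.8 and 7.63 CPM in vitro, 12.6 and 19.0 CPM at slice 1 day, 19.8 and 7.68 CPM at 1 week and 15.7 and 27.2 CPM at 3 weeks. The in vitro libraries lay below adult and the slice 3 weeks libraries on both sides of it. Nlrp3 fell 2.60-fold in vitro (log2 fold change -1.38 ± 0.30, adjusted p = 0.00288; 0.79 with UMIs per cell, and an adjusted p of 0.0516 without in vitro replicate 2) and was not called at any slice time. Its log2 fold change at 1 day was -0.56 ± 0.32 (adjusted p = 0.152), so a change of Nlrp3 at the time of the Il1b peak was not detectable in these libraries.

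Pycard, which encodes the adaptor ASC, held 617 and 596 CPM in adult, 415 and 405 CPM in vitro, 590 and 654 CPM at slice 1 day, 496 in both libraries at 1 week, and 549 and 522 CPM at 3 weeks. Its in vitro value lay below adult by 1.48-fold (log2 fold change -0.57 ± 0.13, adjusted p = 0.00396), just short of the fold threshold, and turned to 1.60 with UMIs per cell. No neighbouring groups in its order were separated.

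Casp1 held 56.5 and 59.6 CPM in adult, 59.9 and 63.1 CPM in vitro, 64.5 and 59.8 CPM at slice 1 day, 36.6 and 40.9 CPM at 1 week and 43.3 and 28.9 CPM at 3 weeks. The later slice libraries were below all others. At 3 weeks Casp1 was 1.62-fold below adult (log2 fold change -0.70 ± 0.18, adjusted p = 0.0102). It was 1.73-fold below slice 1 day (-0.79 ± 0.18, adjusted p = 0.0086). The first call was lost with UMIs per cell (0.44) and without adult replicate 1, adult replicate 2 or slice 3 weeks replicate 2. The second was lost without slice 3 weeks replicate 2, where the log2 fold change was -0.51. Both calls were also lost when only the 2 groups compared were fitted. Casp4 held 17.7 and 16.1 CPM in adult, 11 and 9.88 CPM in vitro, 19.1 and 15.2 CPM at 1 day, 14.8 and 5.12 CPM at 1 week and 14.0 and 15.1 CPM at 3 weeks. It was called in vitro only (1.62-fold lower, -0.70 ± 0.21, adjusted p = 0.0175), and 12 of 26 alternatives did not keep this call, with UMIs per cell giving 1.46. Casp1 made up 76.2% and 78.7% of the summed Casp1 and Casp4 UMIs in adult, 84.5% and 86.5% in vitro, 77.1% and 79.7% at slice 1 day, 71.2% and 88.9% at 1 week (37 and 16 Casp1 UMIs) and 75.6% and 65.6% at 3 weeks.

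**Figure D3:**
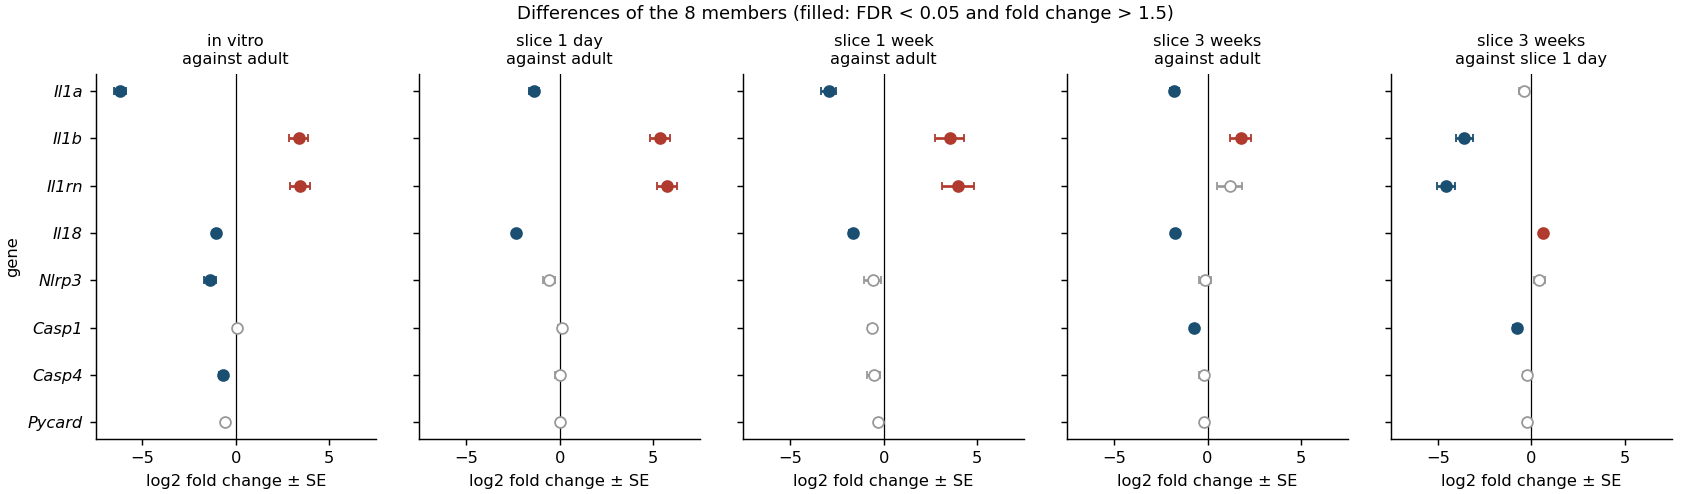
Log2 fold change ± SE of the 8 members in 5 comparisons from edgeR's quasi-likelihood fit of 10 libraries, on CPM relative to the library's other RNA, with filled points for differences called at FDR under 0.05 and fold change above 1.5. Il1b and Il1rn lie far right of 0 in vitro and at slice 1 day while Il1a and Il18 lie left. Pycard is not called in any of them. With UMIs per cell the in vitro values of Il18, Nlrp3, Casp4 and Pycard, the 1 day values of Il1a and Nlrp3, the 1 week and 3 weeks values of Nlrp3, Casp1, Casp4 and Pycard, and the value of Nlrp3 at 3 weeks against 1 day turn in sign; with library size alone those of Casp1 in vitro and of Casp1, Casp4 and Pycard at 1 day do.

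Within the time course, the comparison of slice 3 weeks with 1 day called 4 of 8 members, 1 higher and 3 lower, where 26.7% of all genes were called (13.9% higher, 12.8% lower). With UMIs per cell the share of higher genes among all those called went from 52.0% to 13.7% in this comparison, from 48.3% to 21.3% for 1 week against 1 day (36.5% with library size alone), from 39.0% to 14.3% for 3 weeks against 1 week, and from 39.9% to 90.5% for in vitro against 3 weeks. Neither step through 1 week was resolved. For 1 week against 1 day edgeR called 0 members (10.2% of all genes, 4.91% higher and 5.25% lower), though 6 had an unadjusted p under 0.05 and DESeq2 called 3. For 3 weeks against 1 week edgeR called 0 (5.72% of all genes, 2.23% higher and 3.49% lower), with 3 at an unadjusted p under 0.05 and 1 called by DESeq2. The values for 1 week against 1 day were log2 fold changes of -1.54 for Il1a (adjusted p = 0.0517), -1.85 for Il1b (adjusted p = 0.0713) and -1.76 for Il1rn (adjusted p = 0.081). In the direct comparison of the culture systems, in vitro against slice 3 weeks, 6 of 8 members were called (33.2% of all genes, 13.3% higher and 19.9% lower). Il1b (3.01-fold), Il1rn (4.76-fold), Il18 (1.58-fold) and Casp1 (1.72-fold) were higher in vitro, with adjusted p of 0.0172, 0.004, 0.00654 and 0.00577. For Il1rn the log2 value of 2.25 was 1.41 without slice 3 weeks replicate 2 and 3.26 without replicate 1, and the call held. Il18 lost its call with library size alone, where its log2 value of 0.56 was below the fold threshold. Il1a (21.6-fold) and Nlrp3 (2.37-fold, adjusted p = 0.00875) were lower. Without slice 3 weeks replicate 2, the calls of Il1b, Nlrp3 and Casp1 (log2 fold change 0.57) were lost. The Il1b call was also lost without in vitro replicate 1 and when only the 2 groups compared were fitted. Its log2 value of 1.59 ranged from 0.77 to 2.65 over the alternatives. The Nlrp3 call was also lost without in vitro replicate 2. With UMIs per cell the Nlrp3 call was lost as well (log2 fold change -0.13, adjusted p = 0.787).

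Against slice 1 day, 6 of 8 members were called in vitro, 1 higher (Il18) and 5 lower (Il1a, Il1b, Il1rn, Casp4 and Pycard), where 31.9% of all genes were called, 13.3% higher and 18.6% lower. Against slice 1 week only Il1a was called, lower in vitro by 3.29 on the log2 scale, where 16.2% of all genes were called, 6.20% higher and 10% lower. These comparisons were fitted in the same model, without the alternatives run for the others.

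The libraries carry 2 study labels: adult replicate 1 and slice 3 weeks replicate 1 share the first, and the other 8 libraries the second. Slice 3 weeks against adult could be computed within each label, from 1 library a side. The log2 ratio within the label of 8 and that of 2 was -1.61 and -1.92 for Il1a, 1.8 and 1.7 for Il1b, -1.61 and -1.78 for Il18, and -1.04 and -0.38 for Casp1. Il1rn differed in sign, at -0.16 and 2.17, as did Nlrp3, at 0.19 and -0.61. With only the 8 libraries, 24 of the 28 calls made over the 8 comparisons were kept. The calls lost were those of Il1b at 3 weeks (adjusted p = 0.212) and 1 week (0.055) against adult, of Casp4 in vitro against adult (0.0516), and of Il18 at 3 weeks against 1 day, whose log2 value of 0.55 was below the fold threshold. The slice 1 day values were 5.61 for Il1b and 5.29 for Il1rn.

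To compare shares of cells, each cell was thinned to 1500 UMIs. Il1a was detected in 12.8% of thinned adult replicate 1 cells (exact 95% interval 11.7 to 14.0) and 10.8% of replicate 2 cells, against 0.0827% and 0.0746% in vitro, 5.06% and 2.66% at slice 1 day, 2.13% and 1.79% in slice 1 week cells, and 3.38% with 3.48% in slice 3 weeks cells. Without thinning, 25.3% of adult replicate 1 cells and 14.1% of replicate 2 cells had a UMI, at median depths of 3257 and 1858 UMIs, and no cell had more than 8. Il1b was detected in 0.227% and 0.225% of thinned adult cells, never with more than 1 UMI in a cell, and in 10.5% and 5.72% at slice 1 day, 4.26% and 1.79% at 1 week, 0.607% and 0.481% at 3 weeks, and 2.07% and 1.08% in vitro. Unthinned, its shares were 0.605% and 0.284% in adult, 16.4% and 16.8% at slice 1 day, 8.78% and 3.28% at 1 week, 1.82% and 1.15% at 3 weeks and 7.49% and 4.51% in vitro. Without neutrophil-rich cells the thinned Il1b shares at slice 1 day were 6.99% and 4.29%. For Il1rn the thinned shares were 0.0284% and 0.0374% in adult, 6.61% and 4.64% at slice 1 day, 0.709% and 3.57% at 1 week, 0.260% and 0.107% at 3 weeks, and 0.703% and 0.783% in vitro, with 3.06% and 3.08% at slice 1 day without the neutrophil-rich cells. No cell type that should lack Il1b was present in numbers, so what free RNA adds to the lowest shares was not measured.

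**Figure D4:**
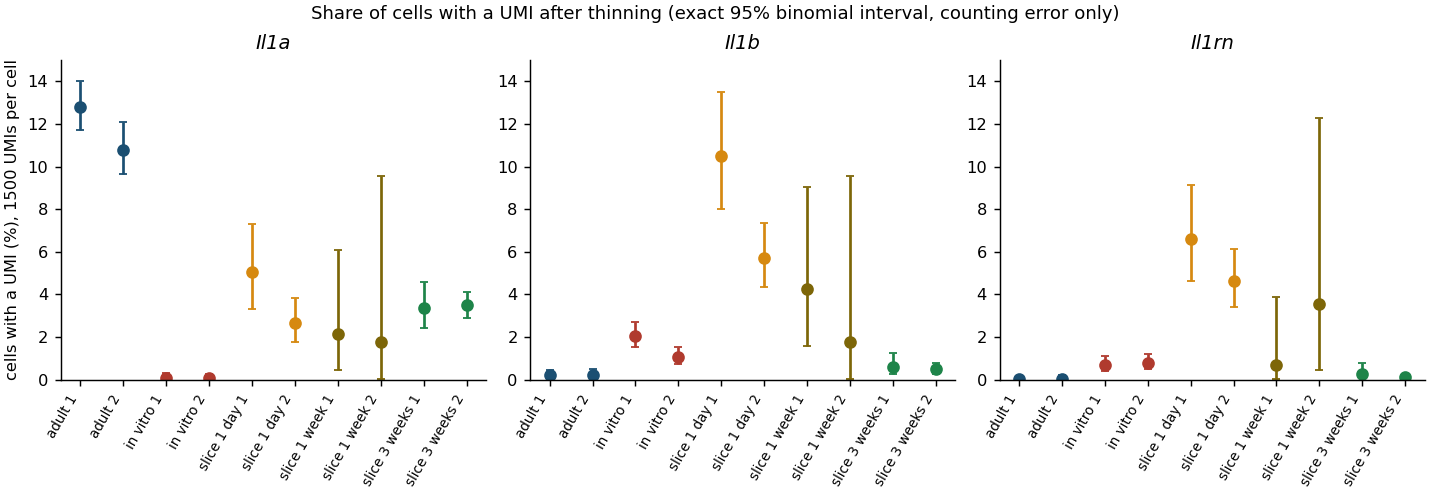
Percentage of cells with a UMI of Il1a, Il1b or Il1rn after thinning each cell to 1500 UMIs, for each library, with exact 95% binomial intervals that cover counting error only. Il1a was found in 10.8% and 12.8% of adult cells, Il1b and Il1rn reach their highest shares at slice 1 day, and the intervals of slice 1 week, with 141 and 56 cells, are wide.

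Single cells could carry a large part of a library's Il1b. At slice 1 day replicate 2, 1 cell held 127 of 546 Il1b UMIs (23.3%), with 27 Il1a and 11 Il1rn UMIs. Neutrophil markers made up 0.380% of its UMIs, and it held 39 UMIs of the microglia markers. In that library 28 cells had at least 3 border macrophage markers, and 3 of them held 132 Il1b UMIs. All 27 Il1a UMIs of those 28 cells lay in 1 cell, the same number as in the cell above. Without the cell with 127 Il1b UMIs, the unscaled level of that library was 44.0 instead of 57.2 CPM. At slice 3 weeks replicate 1, 1 cell held 15 of 45 Il1b UMIs and 11 Il1a UMIs. In vitro, the cells with most Il1b held 70 and 36 UMIs and no Il1a UMI.

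At slice 1 day, Il1rn was found at a higher share in cells with Il1b than in cells without it. Of the thinned cells with an Il1b UMI, 29.6% in replicate 1 (interval 18.0 to 43.6) and 27.6% in replicate 2 (16.7 to 40.9) also had an Il1rn UMI, against 3.91% (2.34 to 6.11) and 3.24% (2.21 to 4.57) of cells without Il1b. Il1a was found in 7.41% and 15.5% of cells with Il1b and 4.78% and 1.88% of those without, and the intervals overlapped in replicate 1 only. In vitro, Il1rn was seen in 1 of 50 and 0 of 29 cells with Il1b. Those counts include the neutrophil-rich cells, which hold both genes. Without them, Il1rn was found in 21.9% of cells with Il1b (7 of 32, interval 9.28 to 40) against 1.64% without it (0.663 to 3.36) in replicate 1. In replicate 2 the shares were 10.3% (4 of 39, 2.87 to 24.2) and 2.76% (1.78 to 4.08), with intervals that overlapped. The shares describe cells of single libraries and were not tested.

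Neutrophils are themselves a rich source of Il1b and Il1rn, so the slice 1 day values were split. In replicate 1, Il1b stood at 489 CPM in the 57 neutrophil-rich cells and 57.0 CPM in the 461 others, and in replicate 2 at 182 CPM in 105 cells and 46.9 CPM in 909. The other cells had 0.0863% and 0.473% of their UMIs in the neutrophil markers; the part of free neutrophil RNA in their Il1b was not tested. Neutrophil-rich cells carried 27.0% and 24.4% of the Il1b UMIs of these libraries and 36.2% and 19.4% of the Il1rn UMIs. The planned rule of at least 3 neutrophil markers marked more cells, 215 of 518 in replicate 1. Those held 68.2% of its Il1b UMIs and 80.2% of its Il1rn UMIs. In replicate 2 that rule marked 1012 of 1014 cells. Il1rn stood at 423 and 69.7 CPM in the rich cells and 32.2 and 24.1 CPM in the others. The others were not all marked as microglia. Cells with at least 3 microglia markers, which may also be neutrophil-rich, numbered 412 of 518 and 918 of 1014. They held 48.5% and 78.2% of the Il1b UMIs, at 40.3 and 46.9 CPM, and 43.5% and 78.7% of the Il1rn UMIs. Without the rich cells Il1b was still higher than in adult by a log2 fold change of 5.02 (adjusted p = 1.6e-05) and Il1rn by 5.32 (adjusted p = 1.41e-05).

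Il1a, Il18, Casp1 and Pycard were lower in the neutrophil-rich cells of both replicates. Nlrp3 and Casp4 were higher there in replicate 1 (33.0 against 12.2 CPM and 52.9 against 18.5 CPM) and lower in replicate 2 (4.10 against 20.6 CPM and 8.20 against 16.1 CPM). Il18 stood at 0 and 1.37 CPM in the rich cells (0 and 1 UMIs) and 12.8 and 12.5 CPM in the others. Casp1 stood at 13.2 and 10.9 CPM against 69.5 and 64.9 CPM, and Pycard at 456 and 320 CPM against 622 and 694 CPM. Rich cells were shallower, with medians of 2295 and 5233 UMIs against 6839 and 8815. At 1 week, replicate 1 held 10 of its 24 Il1b UMIs in 23 neutrophil-rich cells, and without them the rise of Il1b had a log2 fold change of 2.95 (adjusted p = 0.0222). Cells with monocyte markers, 36 and 177 at 1 day and 23 in 1 week replicate 1, were also removed together with the rich cells in another alternative, and all 28 calls were kept.

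**Figure D5:**
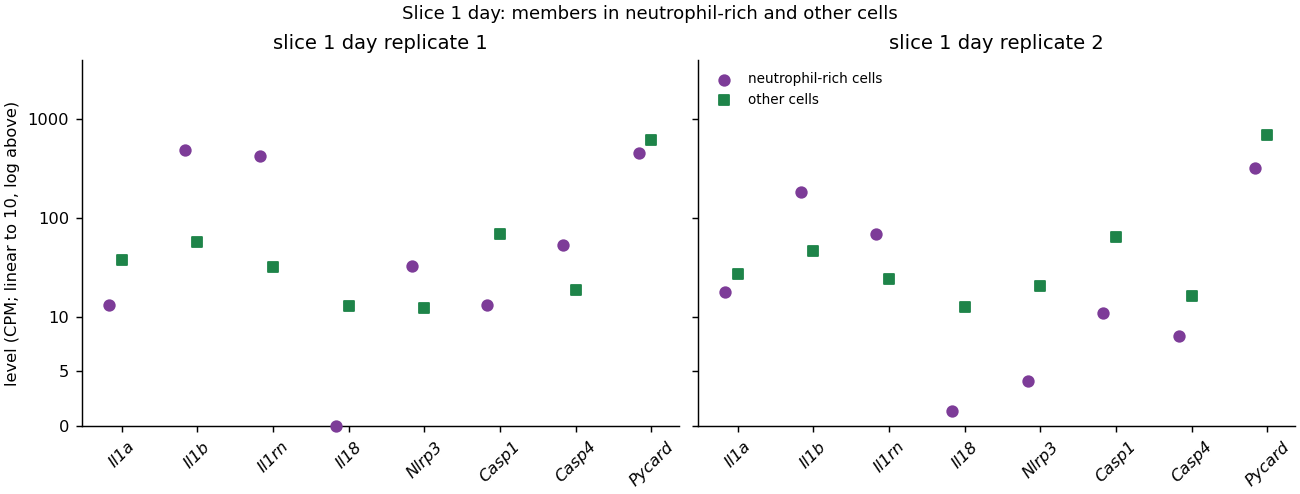
Level of each member at slice 1 day in neutrophil-rich cells (circles) and in all other cells (squares), in unscaled CPM on an axis that is linear up to 10 and logarithmic above. Il1b and Il1rn are higher in neutrophil-rich cells than in the others in both replicates (489 and 423 CPM in replicate 1, against 57.0 and 32.2 CPM in the other cells).

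Around the members, 43 further genes of the pathway were counted; 38 had a UMI and 35 were tested. Against adult, 6 were higher and 10 lower in vitro, and in slices 10 were higher and 7 lower after 1 day, 7 higher and 6 lower after 1 week, and 6 higher and 6 lower after 3 weeks, with medians of -0.21, -0.02, -0.01 and 0.03 on the log2 scale, beside -0.11, -0.06, -0.08 and -0.03 for all genes. Among all genes the shares called higher and lower were 22.4% and 28.5% in vitro and 24.9% and 25.3% after 1 day, near the shares of this list. These genes were fitted on CPM and not recomputed with UMIs per cell. Among the receptors and binding proteins, Il1r2, the decoy receptor that takes up interleukin-1 without signalling, held 81.3 and 42.2 CPM at slice 1 day and 0.293 and 0.386 CPM in adult. Most of it, 69.0% and 70.7% of its UMIs, lay in neutrophil-rich cells. Its log2 fold change was 7.5 with them and 5.83 without (adjusted p = 0.000303), and the 1 week call was lost without them (adjusted p = 0.5). Il18bp, which neutralises interleukin-18, was higher at 3 weeks, at 16.2 and 52.7 CPM against 3.74 and 1.93 CPM in adult (3.56 ± 0.60, adjusted p = 0.0011), with a wide gap between the slice libraries.

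Among sensors and partners, Nlrc4, whose product is recruited by NAIP proteins that bind bacterial flagellin, held 9.25 and 7.75 CPM in vitro and 0 and 0.129 CPM in adult. Aim2, a sensor of cytosolic DNA, held 55.4 and 46.8 CPM in adult and was lower in vitro (24.8 and 23.7 CPM), with a log2 fold change of -1.07 ± 0.14 (adjusted p = 9.8e-05). P2rx7, the ATP-gated channel that triggers NLRP3, fell in all 4 cultured groups, by 1.10 in vitro, 1.39 at 1 day, 0.68 at 1 week and 0.83 at 3 weeks on the log2 scale. Nek7, which binds NLRP3, was lower in vitro (-1.02), at 1 day (-0.94) and at 1 week (-0.70) and not called at 3 weeks (-0.16, adjusted p = 0.51). Pstpip1, a partner of pyrin, rose in all 4, by 4.85, 3.89, 3.97 and 2.93, from 1.83 and 1.55 CPM in adult to 50.6 and 48.6 CPM in vitro.

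Downstream of the inflammasome, Gsdmd, which encodes gasdermin D, was not called in any comparison with adult, its largest difference being -0.57 at 3 weeks (adjusted p = 0.00753, below the fold threshold). Ninj1, needed for the final rupture of dying cells, rose in vitro (1.72), at 1 day (0.82) and at 3 weeks (1.06). Casp8 fell in all 4 groups, by 0.93, 1.12, 0.94 and 1.04. Of the receptor signalling genes, Irak3, an inhibitor of this signalling, rose in vitro (2.63), at 1 day (2.32) and at 1 week (2.50), and Irak2, a kinase that sustains it, was lower in the same groups (-1.66, -1.47 and -1.01). Counts of NF-kB feedback genes were mixed: of 10 genes, 4 were higher and 3 lower at slice 1 day and 3 and 3 in vitro, few genes beside the same background. Bcl3 was higher in all 4 groups, and Nfkb1 and Nfkbie were lower in all 4. The summed level of 15 immediate early genes, often taken as a sign of handling, was 1610 and 1700 CPM in adult, 1680 and 1360 CPM at slice 1 day, 762 and 745 CPM at 1 week, 1020 and 981 CPM at 3 weeks and 571 and 483 CPM in vitro. Its single genes moved apart: of 14 tested, 8 were called higher at slice 1 day, among them Ier3 (log2 fold change 4.56), Dusp1 (4.37) and Atf3 (3.68), and 2 lower, Btg2 (-2.45) and Jun (-1.35), where 24.9% of all genes were higher and 25.3% lower. In vitro 4 were higher and 5 lower, where 22.4% and 28.5% of all genes were. The part of these genes' changes in the member levels was not tested.

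The genes whose log2 levels were most like each member over the 10 libraries were sought among genes averaging 5 or more in log2 CPM. For Il1a they were Smg9 (Pearson r = 0.968) and Gm6483 (0.957), and for Il1b Mcts1 (0.963), a translation factor, and Sap30 (0.956), a part of a histone deacetylase complex. For Il1rn they were Pgd (0.974), an enzyme of the pentose phosphate pathway, and Map2k3 (0.974), a kinase upstream of p38. Il18 was most like Nudt16l1 (0.969) and Blnk (0.967), a signalling adaptor, and Nlrp3 most like Gpr107 (0.936) and Trpc4ap (0.934). Casp1 went with Cmtm3 (0.957) and 2210016F16Rik (0.942), Casp4 with Tmem11 (0.956) and Runx1 (0.950), a transcription factor, and Pycard with Ddx39b (0.961), an RNA helicase, and Pla2g4a (0.954), cytosolic phospholipase A2. These are descriptions over 10 libraries in 5 groups, in which few independent levels decide the value.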

How the data were processed

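The deposited tables hold raw counts, whole-number UMIs per gene and cell barcode, 1 table for each of 10 libraries, prepared with the 10x Genomics 3' kit v2. Per the submitters' processing notes the authors used Cell Ranger 1.3.0 and mm10; whether the tables were taken before or after its depth-equalising aggregation is not given in the sources used here. The study's own limits were applied to barcodes (at most 5% of UMIs mitochondrial, at least 400 genes detected, at most 30000 UMIs), leaving 19059 cells; in several libraries, slice 1 week among them, this leaves more cells than the study analysed. No doublet caller was run. Counts were summed per library and fitted with edgeR 4.0.16 in R 4.3.3 (quasi-likelihood test, TMM, filterByExpr with a minimum of 10, all 10 libraries in 1 fit, Benjamini-Hochberg over 12157 genes). The SE is the log2 fold change over the square root of F. Alternatives used DESeq2 1.42.0, other scalings, filters and samples. The biological coefficient of variation was 18.3%. An exact permutation test of 2 libraries against 2 cannot go below 0.333, so none was run. Shares carry exact (Clopper-Pearson) 95% intervals. A count of 0 was left as 0 CPM. As a guide to depth, 3 counts equal 0.0756 to 7.78 CPM depending on the library. The scripts were checked on simulated counts with 200 changed genes. The members, the lists of pathway and marker genes and the tests were chosen with earlier results of these data known; named genes are the 8 members, the genes of those lists called in a comparison, and for each member the 2 genes most like it. The cut for neutrophil-rich cells was set after seeing the data, because a planned rule (at least 3 neutrophil markers) marked 1012 of 1014 cells in a library. Gene positions and promoter windows are RefSeq's on GRCm38, and overlapping genes and the starts from which motifs are placed are GENCODE's; the NF-kB consensus was searched on both strands. Proteins were not analysed here. A marker gene of the list for microglia is not reported here.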

Additional observations from a re-analysis of the deposited data

Results flagged for a closer look

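The barcodes removed as damaged or overloaded, which no comparison above used, held UMIs of Il1b and Il1rn in some cultured libraries. The removed adult barcodes held none, but with 53004 and 37526 UMIs in all they were too few to show levels like these, so adult and cultures are not compared here. Il1rn had 49 UMIs in the 140 removed barcodes of in vitro replicate 1 and 69 in the 143 of replicate 2, which is 17.0% and 22.3% of all its UMIs there and 15.2 and 22.3 CPM. Il1b had 27 and 6 UMIs in the same barcodes, 8.36 and 1.94 CPM. Il1rn had 5 UMIs in the 20 removed barcodes of slice 1 day replicate 2. With all barcodes kept, all 28 calls of members stood.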

How the results depend on the processing

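Of 28 called member differences, 11 kept call and direction under every alternative run. Counts of members called moved mostly in the 2 steps through slice 1 week. With UMIs per cell, 7 were called at slice 1 day against adult, where 8251 of all 12157 genes were called higher and 424 lower. For 1 week against 1 day the count was 1 with library size alone, all barcodes, only those groups fitted, no monocyte-marker cells or no neutrophil-rich cells, 2 without dividing-marker cells or with 1 study label, 3 with DESeq2 or UMIs per cell, 4 without a filter on low counts, and 0 to 2 leaving out a library. For 3 weeks against 1 week it was 1 with DESeq2, the study label as covariate or 1 study label, 2 with UMIs per cell, 3 without the filter, and 0 to 1 leaving out a library. It was 2 for 3 weeks against 1 day with only those groups fitted. Leaving out a library gave 2 to 5 members at 1 week and 2 to 4 at 3 weeks against adult, and 3 to 6 in vitro against 3 weeks (3 without slice 3 weeks replicate 2). The cause was not tested.

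Replicate numbers did not pair the libraries (correlations of same-numbered deviations from -0.28 to 0.23); with a replicate block the count for 1 week against 1 day was 2 (Il1a and Il1b), and no other count moved.

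Signs turned in these places, and differences called in the chosen fit turned with UMIs per cell alone. With UMIs per cell the log2 values were 1.08 for Il18, 0.79 for Nlrp3, 1.46 for Casp4 and 1.60 for Pycard in vitro; 0.12 for Il1a and 1.00 for Nlrp3 at 1 day; 0.57 for Nlrp3, 0.61 for Casp1, 0.63 for Casp4 and 0.90 for Pycard at 1 week; 0.92 for Nlrp3, 0.44 for Casp1, 0.86 for Casp4 and 0.92 for Pycard at 3 weeks; -0.08 for Nlrp3 at 3 weeks against 1 day; and 0.59 for Casp4 and 0.68 for Pycard in vitro against 3 weeks. With library size alone they were -0.22 for Casp1 in vitro, and -0.03 for Casp1, -0.12 for Casp4 and -0.09 for Pycard at 1 day. At 1 day Casp4 gave -0.03 without neutrophil-rich cells and -0.15 to 0.24 leaving out a library, and Pycard -0.02 without dividing-marker cells and -0.03 thinned. At 3 weeks Nlrp3 gave 0.12 thinned, 0.19 with 1 study label and -0.55 to 0.22 leaving out a library, Casp4 0.01 thinned, and Il1rn -0.19 with 1 study label. For 1 week against 1 day Nlrp3 gave 0.01 with the replicate block, 0.04 without dividing-marker or neutrophil-rich cells, 0.03 without neutrophil-rich and monocyte-marker cells, 0.17 thinned, and -1.09 to 0.33 leaving out a library. Leaving out a library gave -0.05 (without slice 3 weeks replicate 2) to 0.80 for Nlrp3 at 3 weeks against 1 day. For 3 weeks against 1 week, Il18 and Casp1 gave 0.04 without the filter, and leaving out a library gave -2.09 to 0.05 for Il1b, -0.12 to 0.06 for Il18, and -0.34 to 0.26 for Casp1.

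The planned fit without neutrophil-marker cells was not run, since it left 0 cells in a library and 2 in another. Depth limits slice 1 week most, where 3 UMIs equal 7.78 CPM in replicate 2.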
